A study of Mus musculus with 4 samples.

Results

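The 10 genes described here, across 4 liver arrays, are the 3 CIDE genes Cidea, Cideb and Cidec, the 5 perilipin genes Plin1 to Plin5, and G0s2 and Abhd5, which encode regulators of the lipase that works on the droplet surface. They were chosen by name, through probes whose accession maps to them, and are 10 of 20886 genes that could be named on the arrays. That choice was made with earlier results of these data known, so shares and ranks set beside all genes below are descriptions only. The 4 groups were male mice that were wild type or catalase knockout, fed a normal diet with 18% of calories from fat or a high-fat diet with 60.3% of calories from fat, for 11 weeks between 29 and 40 weeks of age. Catalase splits hydrogen peroxide into water and oxygen, chiefly in peroxisomes. The sources used here give no strain and do not say which cells lack catalase or whether a sample was 1 animal or a pool. RNA from each group was read on 1 array, so no difference below has a replicate, and the spread between animals is unknown.

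Liver cells store triacylglycerol and sterol esters in droplets bounded by a single layer of phospholipid. Perilipins coat that layer and limit the access of lipases, CIDE proteins gather where droplets touch and pass lipid from the smaller to the larger droplet, and Abhd5 and G0s2 respectively activate and inhibit adipose triglyceride lipase, the product of Pnpla2. Cideb and Plin2 are the family members usually abundant in liver, whereas Cidea, Cidec, Plin1 and Plin4 are best known from fat tissue and several of them rise in fatty liver.

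Signals are given as the log2 of the background-subtracted spot signal minus the 75th percentile of the array, called the scaled log2 signal. A value of 0 is thus the brightness of the 75th percentile. Values of different probes are not set against each other, except where the signals of a marker list are summed. The ± after a value is the scanner's error for that spot or difference, which covers the spot measurement only. For bright spots it was a nearly fixed share of the signal, 0.14 in log2, so ± 0.20 recurs and is not a measured spread. It is smaller where a probe had several spots, because the errors were combined over them. Within or beyond the scanner error thus means a nearly fixed cut. A gene was called higher or lower where 2 arrays differed by at least 2-fold, a log2 difference of 1, and the probe was well above background by the scanner's flag. No spot was saturated, and between 23757 and 25184 of 39429 probes were well above background on each array. The knockout carried a low Cat signal, with log2 differences from wild type of -3.76 ± 0.20 on normal diet and -3.81 ± 0.20 on high-fat diet, although the labels do not say whether the probe lies in the deleted part. The members had 14 probes, of which 13 were well above background on all 4 arrays. The exception was the probe of Plin1. Hepatocyte markers such as Alb and Apoa1 were bright on every array, with 10 of 10 well above background.

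**Figure D1:**
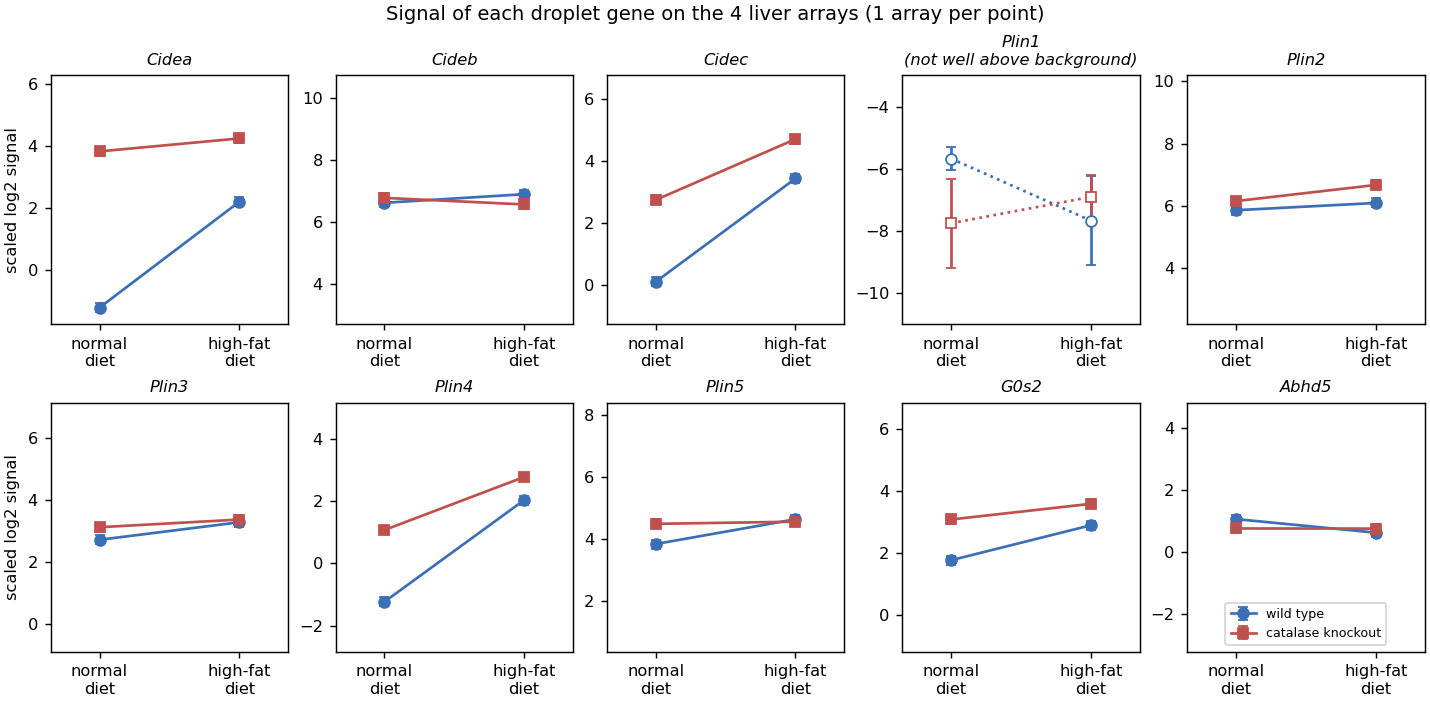
Each panel plots the scaled log2 signal of a gene on the vertical axis against diet, with 1 array per point, blue circles for wild type, red squares for catalase knockout and bars for the scanner error; every panel spans the same height. Cidea, Cidec and Plin4 are lowest in wild type on normal diet and highest in the knockout on high-fat diet, Cideb and Abhd5 are nearly flat, and the open Plin1 points were not well above background.

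Among the CIDE genes, Cidea spanned the widest range of all members. Its processed signal was 436 in normal-diet wild type, 4667 in high-fat wild type, 14143 in normal-diet knockout and 21691 in high-fat knockout. The scaled log2 signals were -1.21, 2.20, 3.82 and 4.23 in the same order. Wild type on normal diet was thus far below the other arrays, and both knockout arrays lay above both wild-type arrays. In wild type it was 10.6-fold higher on the high-fat diet, a log2 difference of 3.40 ± 0.20. In the knockout the same diet gave 1.33-fold, 0.42 ± 0.20, which did not reach the size rule. Between genotypes Cidea was 32.6-fold higher in the knockout on normal diet, 5.03 ± 0.20, the highest of 13779 genes measured on both arrays, and 4.11-fold higher on high-fat diet, 2.04 ± 0.20. The knockout on normal diet also exceeded wild type on high-fat diet by 1.62 ± 0.20. The 4 groups together spanned 43.5-fold.

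Cidec, also known as Fsp27, encodes the CIDE protein that drives growth of the single large droplet of white fat cells. It was read by 2 probes. The brighter probe gave processed signals of 1092 in normal-diet wild type, 11062 in high-fat wild type, 6749 in normal-diet knockout and 30072 in high-fat knockout, or scaled log2 signals of 0.12, 3.44, 2.75 and 4.71. Here the order of the middle arrays was the reverse of that of Cidea, with wild type on high-fat diet above the knockout on normal diet by 0.69 ± 0.20. On the high-fat diet Cidec was higher by 3.32 ± 0.20 in wild type and 3.88-fold higher in the knockout, 1.96 ± 0.20. The knockout was higher by 2.63 ± 0.20 on normal diet and 2.40-fold higher on high-fat diet, 1.27 ± 0.20. The fainter probe moved the same way in each comparison, with log2 differences of 2.86 and 2.21 for diet in wild type and knockout and of 2.28 and 1.62 for genotype on normal and high-fat diet. So the 2 probes agree that all 4 differences passed 2-fold, but they differ on how far the diet effects of the genotypes lay apart.

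Cideb encodes the CIDE protein that is abundant in hepatocytes and takes part in loading lipid onto very low density lipoprotein. Its scaled log2 signals were 6.62 in normal-diet wild type, 6.90 in high-fat wild type, 6.78 in normal-diet knockout and 6.57 in high-fat knockout. No neighbouring groups in that order of brightness differed beyond 1.96 times the scanner error, and the whole range was 1.26-fold. The differences were 0.28 ± 0.20 for diet in wild type, -0.21 ± 0.20 for diet in the knockout, 0.16 ± 0.20 for genotype on normal diet and -0.33 ± 0.20 for genotype on high-fat diet. On its other probe the range of differences was similar, from -0.25 to 0.19.

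Plin4, known for binding small new droplets in fat cells, behaved much as Cidec did. Its processed signal was 428 in normal-diet wild type, 4189 in high-fat wild type, 2114 in normal-diet knockout and 7922 in high-fat knockout. The scaled log2 signals were -1.23, 2.04, 1.08 and 2.78. Wild type on normal diet was again the lowest array, and the knockout on normal diet stayed below wild type on high-fat diet by 0.96 ± 0.20. On the high-fat diet Plin4 was 9.66-fold higher in wild type, 3.27 ± 0.20, and 3.26-fold higher in the knockout, 1.71 ± 0.20. The knockout was 4.95-fold higher on normal diet, 2.31 ± 0.20. On high-fat diet the genotypes differed by 1.67-fold, 0.74 ± 0.20, which did not reach the size rule.

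The neighbour of Plin4 on chromosome 17 is Plin5, a perilipin of oxidative tissues that links droplets to mitochondria. Its scaled log2 signals were 3.84 in normal-diet wild type, 4.64 in high-fat wild type, 4.49 in normal-diet knockout and 4.56 in high-fat knockout. The low array was wild type on normal diet, and the other arrays lay within the scanner error of each other. The difference was 0.80 ± 0.20 for diet in wild type and 0.65 ± 0.20 for genotype on normal diet, both under 2-fold. With the diet in the knockout it was 0.07 ± 0.20, which turned to -0.04 when arrays were scaled to the median. Between genotypes on high-fat diet it was -0.08 ± 0.20, which ranged from -0.14 to 0.07 over the alternative settings.

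Plin2, the main coat protein of hepatocyte droplets, and Plin3, which moves from the cytosol to new droplets, were bright everywhere and moved by less than 2-fold. The scaled log2 signals of Plin2 were 5.86 in normal-diet wild type, 6.09 in high-fat wild type, 6.15 in normal-diet knockout and 6.67 in high-fat knockout. The knockout on high-fat diet was the high array, 0.52 ± 0.20 above the next one, while the others differed from their neighbours by no more than 1.96 times the scanner error. Across all arrays Plin2 spanned 1.76-fold. Plin3 had 2.72, 3.28, 3.12 and 3.37 in the same order, and only its lowest array, wild type on normal diet, stood apart from its neighbour beyond the scanner error. Among the 4 comparisons of diet or genotype alone, the largest Plin3 difference was 0.56 ± 0.20, for diet in wild type.

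Plin1 encodes the perilipin of mature fat cells and was not well above background on any of the 4 arrays. Its processed signals were 19.9, 5.06, 4.69 and 9.68, whereas the dimmest probe flagged as well above background read 21.5 to 24.2, depending on the array. No fold is therefore given for it, and only 9 of the 10 members entered the counts below.

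G0s2 encodes a small inhibitor of adipose triglyceride lipase. The processed signal was 3418 in normal-diet wild type, 7548 in high-fat wild type, 8453 in normal-diet knockout and 13766 in high-fat knockout. Wild type on normal diet was lowest, the middle arrays lay within the scanner error of each other, and the knockout on high-fat diet was highest. G0s2 was 2.18-fold higher with the diet in wild type, 1.12 ± 0.20, and 2.48-fold higher in the knockout on normal diet, 1.31 ± 0.20. Both are close to the size rule. The remaining differences were 0.50 ± 0.20 for diet in the knockout and 0.69 ± 0.20 for genotype on high-fat diet.

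Abhd5, the coactivator of the same lipase, did not follow its inhibitor. Its brightest probe gave scaled log2 signals of 1.07 in normal-diet wild type, 0.63 in high-fat wild type, 0.77 in normal-diet knockout and 0.76 in high-fat knockout. Wild type on normal diet was the highest array here, and no neighbours in the order differed beyond 1.96 times the scanner error. The difference for diet in wild type was -0.44 ± 0.20 on this probe and -0.47 and 0.02 on the other probes. For diet in the knockout it was -0.01 ± 0.20, with the opposite sign after quantile or cyclic loess normalization and with the mean of all probes.

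**Figure D2:**
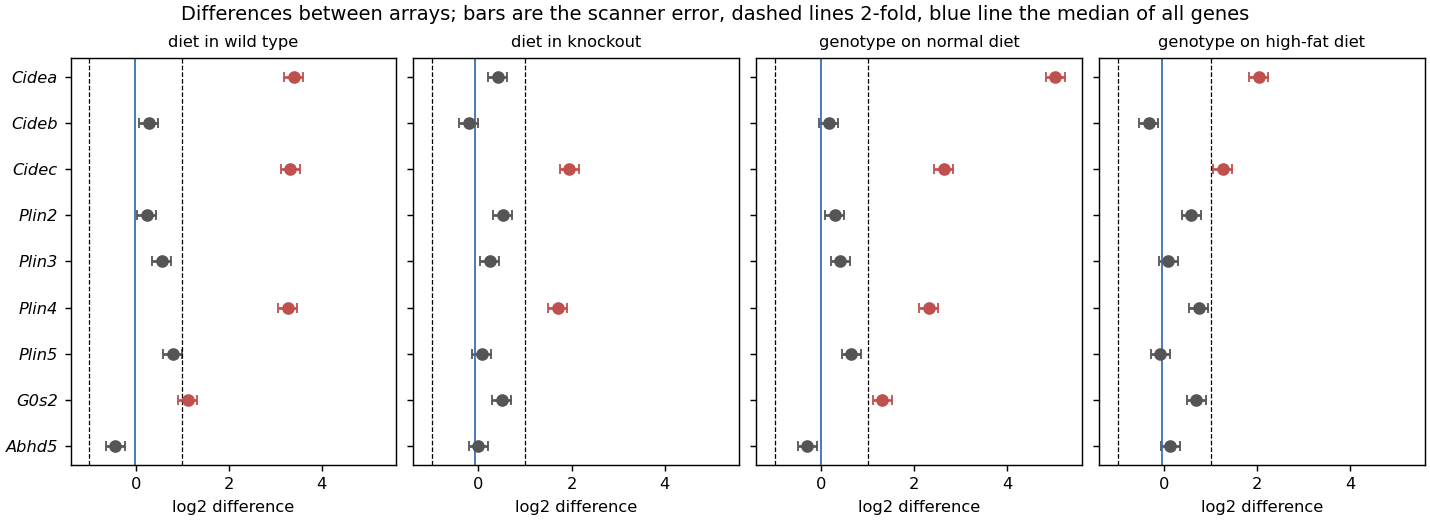
Each panel plots the log2 difference between 2 arrays on the horizontal axis for the 9 members measured, with bars for the scanner error, dashed lines at 2-fold, a blue line at the median of all genes, and red points for genes called higher. Red points are 4 for diet in wild type, 2 for diet in the knockout, 4 for genotype on normal diet and 2 for genotype on high-fat diet, and no point lies beyond 2-fold on the lower side.

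The high-fat diet in wild-type liver was thus accompanied by higher Cidea, Cidec, Plin4 and G0s2. These were 4 of the 9 members measured, with 0 lower, against 1.78% of all 14636 genes called higher and 2.31% called lower in that comparison. Cidea, Cidec and Plin4 ranked 6, 8 and 9 from the top of 13733 genes measured on both arrays. The median over the 9 members was 0.80, against -0.02 over all genes. In the knockout the same diet came with higher Cidec and Plin4, 2 of 9, with 0 lower, against 4.22% of genes called higher and 1.64% lower. The member median there was 0.42 against -0.07. These diet comparisons share no array, and Cidec and Plin4 are 2 of the 4 members called in wild type and 2 of the 2 called in the knockout, while 0.424% of all 15325 genes detected were called higher in both.

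Loss of catalase on the normal diet was accompanied by the same member names as the diet in wild type. Cidea, Cidec, Plin4 and G0s2 were higher, 4 of 9, with 0 lower, against 1.4% of 14702 genes called higher and 2.5% lower, and the member median was 0.65 against -0.01. This comparison shares the wild-type normal-diet array with the diet comparison in wild type, so a low value on that array enters both. On the high-fat diet Cidea and Cidec were higher in the knockout, 2 of 9, with 0 lower, against 2.51% called higher and 1.59% lower, with a median of 0.58 against -0.04. Scaling the arrays to the median moved all genes by 0.14 in the comparison of genotypes on normal diet and by -0.11 in the diet comparison of the knockout, and left every one of these calls in place.

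**Figure D3:**
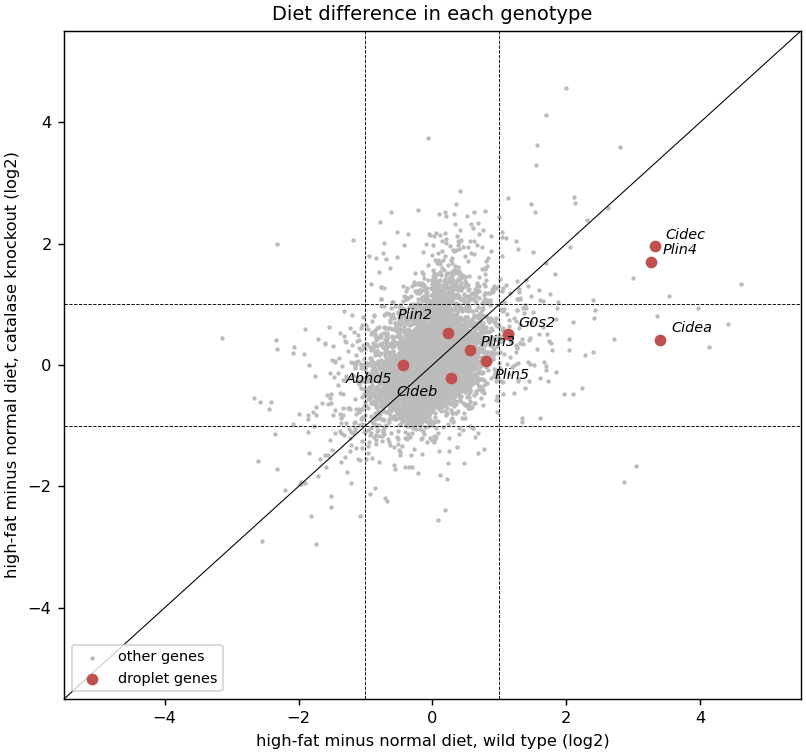
The log2 difference between high-fat and normal diet is plotted for wild type on the horizontal axis and for the catalase knockout on the vertical axis, with grey points for other genes well above background on all 4 arrays, red points for the members, dashed lines at 2-fold and a diagonal where both are equal. Cidea, Cidec and Plin4 lie at 3.27 to 3.40 in wild type but at 0.42 to 1.96 in the knockout, below the diagonal.

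The diet differences of Cidea, Cidec and Plin4 were smaller in the knockout than in wild type by more than 2-fold. The difference of the diet effects, knockout minus wild type, was -2.99 ± 0.29 for Cidea, -1.57 ± 0.29 for Plin4 and -1.37 ± 0.29 for Cidec, but -0.65 ± 0.29 on the fainter Cidec probe. For G0s2 and Plin5 it was -0.62 ± 0.29 and -0.73 ± 0.29, and for Plin2 it was 0.29 ± 0.29. Over all 13550 genes well above background on the 4 arrays, this signed difference was -1 or less for 1.28% and 1 or more for 3.73%. Genes lowered by the diet are counted too, so these are not shares of genes with a weaker or stronger diet response. The interaction of diet and genotype has no replicate and was not tested. In level the high-fat knockout was still the highest array for all of Cidea, Cidec, Plin4, Plin2, Plin3 and G0s2, with log2 differences from wild type on normal diet of 5.44, 4.59, 4.01, 0.81, 0.65 and 1.81. For Plin3, though, it exceeded high-fat wild type by only 0.09 ± 0.20, within the scanner error.

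An additive model of genotype and diet, fitted with limma over 14346 genes, has 1 residual degree of freedom and takes the interaction as error. It called 0 of 9 members for diet and 0 of 9 for genotype after Benjamini-Hochberg adjustment, as it did 0% of all genes. At an unadjusted limma p under 0.05 it held 3 members for diet and 5 for genotype, against 9.93% and 7.26% of all genes. For diet the limma effect was 2.64 for Cidec with an SE of 0.40 (adjusted p = 0.43), 2.49 for Plin4 with an SE of 0.45 (adjusted p = 0.45) and 0.81 for G0s2 with an SE of 0.21 (adjusted p = 0.48). For genotype the limma effect of Cidea was 3.53 with an SE of 0.85 (adjusted p = 0.64). Arrays scaled to the median gave 3 members called for each factor, beside 377 of all 14346 genes for diet, 2.63%, and 219 for genotype, 1.53%, and there every member had the same limma SE, 0.32.

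The letters before the start sites of 2 genes that were higher together, Cidec and Plin4, and of the lipase inhibitor gene G0s2 are shown because PPAR receptors are known activators of droplet genes and bind a direct repeat of AGGTCA with 1 base of any kind between the copies, the DR1 element. RefSeq windows of build GRCm38.p6 were used for 9 members, in 11 windows, and Cidea was left out of the search. The 250 bases before the start were searched on both strands for that repeat. Capitals mark the stretch closest to it, and sequences run 5′ to 3′ along the gene.
Cidec, chr6:113435761-113436010, minus strand: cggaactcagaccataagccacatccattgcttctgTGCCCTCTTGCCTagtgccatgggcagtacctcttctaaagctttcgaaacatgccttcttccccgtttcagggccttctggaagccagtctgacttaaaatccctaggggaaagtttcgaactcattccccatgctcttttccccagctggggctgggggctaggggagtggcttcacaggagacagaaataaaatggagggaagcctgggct
Plin4, chr17:56109783-56110032, minus strand: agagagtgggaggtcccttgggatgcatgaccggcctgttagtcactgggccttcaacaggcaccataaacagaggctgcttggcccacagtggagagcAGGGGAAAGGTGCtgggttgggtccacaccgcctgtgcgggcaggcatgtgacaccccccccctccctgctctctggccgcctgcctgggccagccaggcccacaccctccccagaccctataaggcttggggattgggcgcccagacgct
G0s2, chr1:193273189-193273438, minus strand: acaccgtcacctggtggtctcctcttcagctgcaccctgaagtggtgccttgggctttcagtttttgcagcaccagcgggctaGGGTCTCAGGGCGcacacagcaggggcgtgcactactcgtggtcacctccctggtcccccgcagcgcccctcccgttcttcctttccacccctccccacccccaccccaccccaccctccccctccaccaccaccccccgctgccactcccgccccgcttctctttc

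The closest stretch had 3 mismatches to the repeat in the Cidec window shown and 4 in Plin4 and G0s2. It began 214, 151 and 167 bases before the start. The other Cidec window had 4 mismatches at its closest. In Cidec, as in Plin2 below, the match lay on the opposite strand, so the capitals read as its reverse complement. Among the 9 members searched, Plin2, which moved by less than 2-fold, held the closest match, with 2 mismatches, 225 bases before its start.
Plin2, chr4:86670263-86670292, minus strand: agctttcaGGACCCCTGACCTaagtcagac
A match with up to 3 mismatches was present in 4 of the 11 member windows, those of Plin2, Plin3, Plin5 and Cidec, and in 21.3% of all 32851 windows, while an exact match was in 0 of 11 and in 0.0335% of all. The single copy AGGTCA, which the repeat contains, was in 3 windows, of Plin2, Plin5 and Abhd5, and in 14% of all. TATAAG stood 32 bases before the start of Plin4 and 27 before one of the starts of Plin5, and in 6.65% of all windows. TATAAA was in 1 member window, that of Cideb, and in 12.4% of all, and CACGTG was in 0 of 11 and in 6.02%. Cidec held such a repeat within 3 mismatches in 1 window, and Plin4 and G0s2 did not. The window of Cidea, the remaining called gene, was not used here.

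Other genes of droplet turnover were described from lists. In the lipolysis list of 10 genes, 0 were higher or lower with the diet in wild type, and Pnpla2, the lipase that G0s2 and Abhd5 regulate, differed by 0.05 ± 0.20 there and by -0.09 ± 0.20 in the knockout. With the diet in the knockout 2 of 10 were higher, Hilpda, another inhibitor of that lipase, by 1.12 ± 0.20, and Pnpla5, at least 3.18-fold, from a signal not well above background. Between genotypes 0 differed on normal diet and 3 were higher on high-fat diet, Lipe, the hormone-sensitive lipase gene, by 1.64 ± 0.25, and Pnpla3 and Pnpla5, at least 2.84-fold and 3.03-fold, since their wild-type signals were not well above background. Of 18 genes for droplet assembly and other droplet proteins, of which 16 or 17 were measured, 0 were called in any of the 4 comparisons. Among these, Fitm2, which helps droplets bud from the endoplasmic reticulum, differed by 0.84 ± 0.21 and 0.71 ± 0.21 for diet in wild type and knockout, and Acsl3, an acyl-CoA synthetase of new droplets, by -0.77 ± 0.20 for diet in wild type and -0.91 ± 0.20 for genotype on normal diet.

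The list of triacylglycerol and sterol ester synthesis held 17 genes. With the diet 2 were higher in wild type and 1 in the knockout, and between genotypes 2 were higher on normal diet and 1 on high-fat diet, where 1 was lower. Mogat1, a monoacylglycerol acyltransferase gene, was higher by 2.10 ± 0.21 for diet in wild type and by 2.26 ± 0.21 for genotype on normal diet. Gpat3, which starts glycerolipid synthesis, was higher by 1.75 ± 0.20 and 1.42 ± 0.20 in the same comparisons and by 1.17 ± 0.20 for diet in the knockout. The phosphatidate phosphatase gene Lpin1 was lower in the high-fat knockout than in high-fat wild type, at -1.13 ± 0.20.

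Of 12 transcription factors and coactivators, 1 was lower in 1 comparison, Ppargc1b with the diet in the knockout, at -1.03 ± 0.21. With the scaling used here 0 were higher in any, and Pparg, the receptor that drives droplet genes in fat cells, did not reach 2-fold. Pparg differed by 0.64 ± 0.06 for diet in wild type and 0.43 ± 0.06 for diet in the knockout. For genotype it differed by 0.97 ± 0.06 on normal diet and 0.76 ± 0.06 on high-fat diet. The 0.97 was close to the size rule, and scaling to the median, which moved all genes there by 0.14, takes it past 2-fold. Among 18 other PPAR target genes, 7 were higher with the diet in wild type, 4 with the diet in the knockout, 5 between genotypes on normal diet and 0 on high-fat diet, with 0 lower throughout. Cyp4a14, a fatty acid hydroxylase gene, differed by 4.13 ± 0.20 and 0.29 ± 0.20 for diet in wild type and knockout, and Vldlr, a lipoprotein receptor gene, by 2.71 ± 0.22 and 0.43 ± 0.20. Fgf21, a hormone gene, differed by 2.13 ± 0.21 and 2.67 ± 0.21. The median of this list for genotype on high-fat diet was -0.07, where that of the members was 0.58 and that of all genes -0.04.

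**Figure D4:**
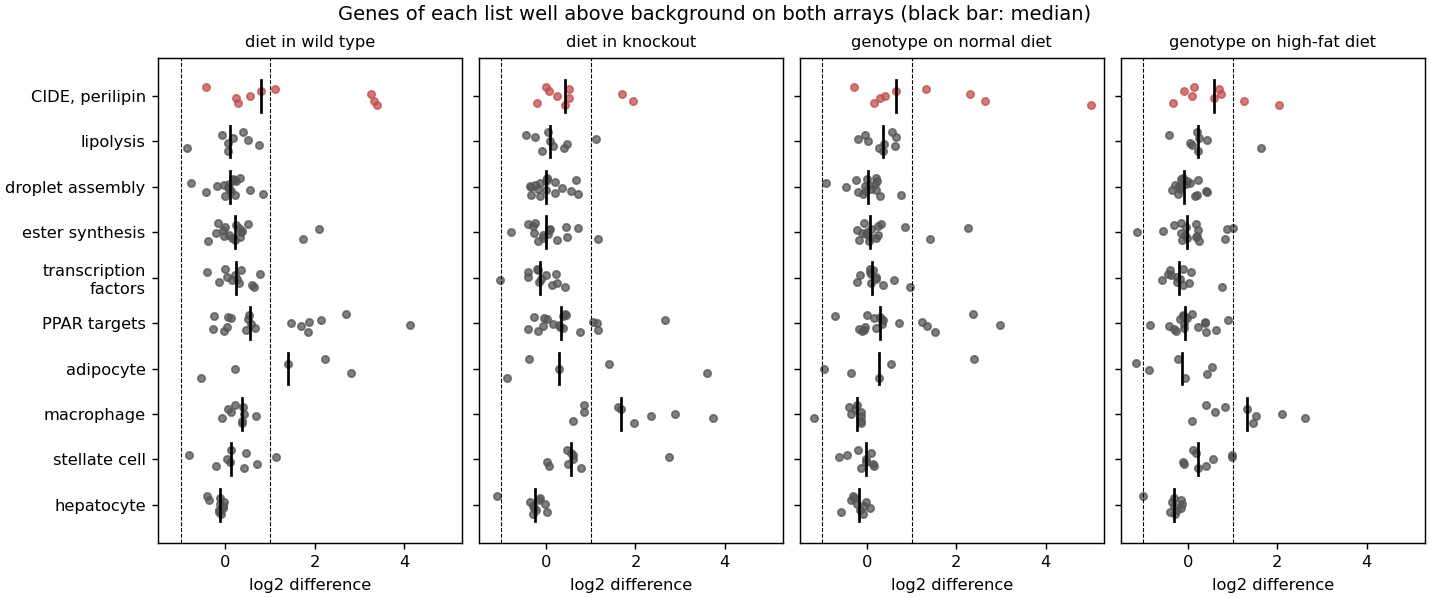
The log2 difference of each gene well above background on both arrays is plotted by list, with the CIDE and perilipin members in red, other lists in grey, a black bar at each median and dashed lines at 2-fold. Members reach 3.40 and 5.03 in the panels for diet in wild type and genotype on normal diet, while droplet assembly genes stay within 2-fold in all 4 panels and macrophage markers have the highest median in both panels that use the knockout high-fat array.

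Fewer cells of a type and less RNA per cell cannot be told apart in these samples. Of 10 adipocyte markers, 5 were well above background in normal-diet wild type, 6 in high-fat wild type, 5 in normal-diet knockout and 7 in high-fat knockout. Adipoq, Lep and Ucp1, which define white and brown fat cells, were not well above background on any of the 4 arrays, and neither was Plin1. The summed signal of the list, in units of each array's 75th percentile, was 2.76, 8.56, 3.47 and 11.3 in the order given. It was thus higher on both high-fat arrays, where Fabp4 and Cfd were the brightest of the list and weighed most in the sum. On normal diet the sum was 3.47 in the knockout and 2.76 in wild type. Between genotypes 1 of these markers was higher in the knockout on normal diet, and on high-fat diet 0 were higher and 1 was lower. With the diet 4 were higher in wild type and 2 in the knockout, among them Cfd, the adipsin gene, by 2.81 ± 0.20 and 3.59 ± 0.20. Slc2a4, an insulin-regulated glucose transporter gene, differed by 2.24 ± 0.07 for diet in wild type and by 2.40 ± 0.07 for genotype on normal diet. For diet in the knockout Slc2a4 differed by -0.38 ± 0.07. Trarg1 was at least 2.89-fold higher with the diet in wild type, from a signal not well above background. Between genotypes on high-fat diet Trarg1 was lower in the knockout, at -1.16 ± 0.34. Fabp4 differed by 1.40 ± 0.20 for diet in each genotype. Retn went the other way, by -0.55 ± 0.26 and -0.88 ± 0.24 for diet in wild type and knockout. Of 5 adipocyte markers measured on both arrays, 4 rose with the diet in wild type and 3 in the knockout. Whether fat cells contributed to the member differences was not tested.

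Macrophages also hold droplets, and their markers moved with 1 array. The summed signal of 10 macrophage markers was 38.8 in normal-diet wild type, 46.7 in high-fat wild type, 31.9 in normal-diet knockout and 84.8 in high-fat knockout. With the diet in the knockout 7 of 10 were higher, among them Marco by 3.74 ± 0.20 and Itgax by 2.87 ± 0.25, against 0 in wild type. In the comparison of genotypes on normal diet, where 4 members were higher, 0 macrophage markers were higher and Marco was lower, at -1.18 ± 0.20. On high-fat diet, where Cidea and Cidec were higher in the knockout, 6 of 10 macrophage markers were higher too, with a median of 1.33. Stellate cell markers, which mark the vitamin A storing cells, summed to 54.7 to 77.1. Dcn was the brightest of them on every array and weighed most in that sum. With the diet 1 of 9 was higher in each genotype, Col1a1, by 1.13 ± 0.21 and 2.75 ± 0.21. Hepatocyte markers summed to 2341 in the knockout on high-fat diet and to 2783 to 3008 on the other arrays, and 1 of 10 was lower in both comparisons with the knockout high-fat array, Cps1, at -1.10 ± 0.20 and -1.01 ± 0.20. Whether these cell types contributed to the member differences was not tested.

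The genes nearest in pattern were found from the distance between 4 scaled log2 signals, each gene centred on its own mean, over 14337 genes. Cidec and Plin4 lay 0.46 apart on this scale, and Cidea lay 1.92 from Cidec and 2.21 from Plin4. Outside the family, Themis was nearest to both, at 0.50 from Cidec and 0.41 from Plin4. The probes of Themis, Chil1, Gprc5b, Cyp2b9 and Wdr93 were well above background on 3 arrays, and the others named here on 4. Next were Chil1 and Adgrv1 for Cidec, at 0.64 and 0.85, and Slc22a27 and Slc22a29, organic anion transporter genes, for Plin4, at 0.51 and 0.71. Nothing lay as close to Cidea, whose nearest genes were Gprc5b at 1.36 and then the P450 genes Cyp2b10 and Cyp2b9, the latter at 1.77. For G0s2 they were Smim3, Wdr93 and Nqo1, at 0.11, 0.12 and 0.15. The distance also grows with the range of a gene, which was 43.5-fold for Cidea and 3.52-fold for G0s2. Distances of different members are thus not on a like footing. With 4 points such likeness is a description only.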

How the data were processed

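Liver RNA labelled with Cy3 was read on 1-colour Agilent arrays, 1 per group. The scanner output that was deposited gives intensity per spot, made with Feature Extraction 11.5.1.1 per the file headers, and values were extracted further with GeneSpring GX 7.3 per the series' design text. The deposited value table held linear intensity within 1% of the scanner's processed signal for 99.7% of probes on each array, uncentred, with medians of 79.9, 75.9, 72.4 and 89.2 for normal-diet and high-fat wild type, then knockout; direction does not apply to it. Arrays shared 1 slide.

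Controls were dropped, as were spots flagged as outliers, except where a probe had no other spot. Accessions named 27508 probes through RefSeq GRCm38.p6; 11921 stayed unnamed. The brightest probe represented a gene; each member probe had 1 spot. Where 1 of 2 arrays was not well above background, it was set to the higher of its own signal and the lowest signal well above background, giving a bound. Members, lists and settings were chosen with earlier results of these data known. Text names all members with Cat, up to 3 genes per list with the largest difference, and the 3 nearest in pattern to each called member; a few were chosen after their values were seen. Cd68 was not matched to a probe. The size rule was run on simulated data with noise no larger than the scanner error, for genes measured on both arrays only. The limma fit was run on simulated data of a set variance. Neither held a spread between animals, so neither gives an error rate for these samples. limma 3.58.1, R 4.3.3, Python 3.11.15, numpy 2.4.6, pandas 2.3.3 and matplotlib 3.10.9 were used. Alternatives were other scalings, background correction, probe choice, dim-probe filters, flagged spots, the value table and 1.5-fold.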

Additional observations from a re-analysis of the deposited data

How the results depend on the processing

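Of 106 counts of members recomputed under another setting, 100 stayed within 1.5 times of the reported count. Many of these counts were 0 under both settings, among them most counts of members lower. With a 1.5-fold rule, 4 members in place of 2 were higher between genotypes on high-fat diet, with Plin4 and G0s2 added, and 5 in place of 3 had diet effects apart. The share of all genes at 1.5-fold was not computed, so nothing is read from the members added. With every probe at its measured signal and no bound, 1 member, Plin1, was lower with diet in wild type and 1 with genotype on normal diet, from signals not well above background. With median scaling the additive limma fit called 3 members for diet and 3 for genotype, in place of 0 and 0, beside 377 and 219 of all 14346 genes, 2.63% and 1.53%. In that fit limma pooled the variance over all genes, giving every member the same SE, 0.32, so those calls rest on the pooling as well as the scaling. Of 280 single-member differences under 7 settings, 0 of those called changed sign, and 274 stayed within the scanner error of the reported value. Part of this was fixed beforehand. Member probes had 1 spot each, 7 members had 1 probe, and the value table nearly equals the scanner signal. Flagged spots, probe averaging and that table could thus hardly move those values. The background correction named with gMeanSignal was not run, and gMedianSignal took its place, a choice made after seeing the data; it lowered the Cidea difference for diet in wild type to 3.19. No paired analysis was possible because each group has 1 array, and for the same reason no replicate could be left out and neither slide nor scan could be fitted. Signal over background limits Plin1.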
